A study of Mus musculus with 18 samples.

Results

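The hAT DNA transposons of the mouse hippocampus were examined here across 18 mice. They were taken as every entry of the repeat count table with class DNA and a family name that begins with hAT. This rule found 119 of 1146 repeat entries, and all 119 passed the filter on a mean count above 10. The mice were C57/B6 animals with no transgene named in the labels. The younger group was 9 months old and had plain drinking water, the older group was 20 months old and had plain drinking water, and the older 3TC-treated group was 20 months old and drank 2 mg/mL 3TC for 6 weeks. Each group held 6 mice, 3 males and 3 females, and each mouse gave 1 hippocampus library. 3TC (lamivudine) is a nucleoside analog that blocks reverse transcriptases. Mice are named by their labels, in which Y marks younger, C older control and D older 3TC-treated mice, and M or F marks the sex.

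hAT elements are named after hobo of the fruit fly, Activator of maize and Tam3 of snapdragon. They move as DNA, cut out and pasted in by a transposase, so that no reverse transcriptase takes part in their cycle. In the mouse genome they are old, inactive remnants, and many lie in introns and between genes, where they are read as part of longer RNAs, of unspliced precursors, or of any DNA left in the RNA. A count for an entry is the sum over all its copies in the genome and does not tell which copy the reads came from, and entries with more or longer copies collect more reads. The order of the entries by count is therefore an order of reads, not of transcription per copy.

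The 119 entries fell into 4 families. hAT-Charlie, named after its autonomous Charlie elements, had 73 entries and 86.4% of all hAT counts. hAT-Tip100 had 31 entries and 8.10%, hAT-Blackjack had 8 entries and 3.66%, and the entries labelled only hAT numbered 7 and had 1.83%. These shares hardly moved between mice, and that of hAT-Charlie was between 86.0% and 87.1% in all 18. Reads were concentrated on few entries, since 6 of them held at least 50% of the hAT counts and the 10 highest held 61.5%. The highest was URR1A (14.5% of hAT counts, mean count 112300), followed by URR1B (13.6%), RCHARR1 (6.75%), MER5A (6.60%) and MER20 (5.36%). URR1A, URR1B, RCHARR1 and RMER30 are nonautonomous elements of the rodent lineage, short copies that depended on a transposase made elsewhere, and together they held 36.4% to 37.7% of the hAT counts of a mouse. The leading entries of the other families were Arthur1 in hAT-Tip100 (0.849% of hAT counts), MER63D in hAT-Blackjack (0.748%) and MER53 among those labelled only hAT (1.13%). At the other end were nhAT5a_ML, Charlie1b_Mars and Cheshire_Mars, with mean counts of 15.3, 15.4 and 17.0 per mouse.

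The summed hAT level differed 2.38-fold between the highest and the lowest mouse, and this spread lay within the groups. Levels are given as CPM, a mouse's counts scaled to a common library size with edgeR's TMM factors. In younger mice the summed level was lowest at 11960 CPM in YM1, with a median of 19490 and a maximum of 24860 in YF3. In older mice it ran from 14270 in CMO6 through a median of 19470 to 28520 in CFO2. In older 3TC-treated mice it ran from 13610 in DFO5 through a median of 19650 to 27330 in DMO5. The 3 groups overlapped over most of their range, with 1 mouse far above the rest in the older and in the 3TC-treated group and 1 mouse far below in the younger group. Means were 18920 ± 4460 CPM in younger, 20030 ± 4868 in older and 19640 ± 4593 in older 3TC-treated mice (SD, n = 6 each).

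Set against gene counts the spread was wider, and set against other repeats it nearly vanished. YM1 had 43.9 hAT counts per 1000 gene counts and CFO2 had 150.8. As a share of all counts, hAT took 1.61% in YM1 and 2.15% in CFO2. As a share of repeat counts it took between 2.40% and 2.58% in all 18 mice, with means of 2.49% ± 0.08 in younger, 2.49% ± 0.06 in older and 2.505% ± 0.056 in older 3TC-treated mice (SD, n = 6 each). Repeats together were 63.4% of all counts in YM1 and 85.7% in CFO2. Total counts ran from 34.6 to 49.1 M per mouse, of which 6.01 to 13.0 M fell in genes, and the hAT total of a mouse was 572000 to 937800 counts.

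**Figure D1:**
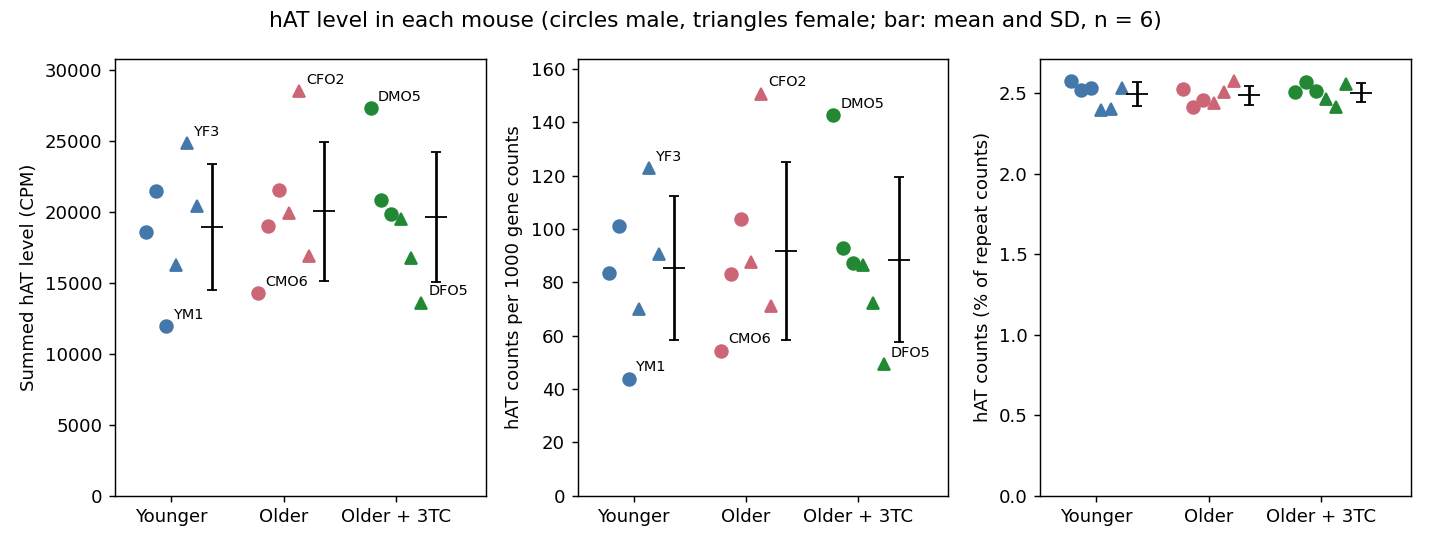
Summed hAT level in each mouse by group, as CPM (left), as counts per 1000 gene counts (middle) and as a percentage of repeat counts (right), with circles for males, triangles for females, and a bar for the mean and SD of 6 mice. The groups overlap in each measure, YM1 is lowest and CFO2 highest in the first and second, and the share of repeat counts stays between 2.40% and 2.58%.

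Nearly all hAT entries rose and fell together across mice. Among the 115 entries with a mean count above 100, YM1 was the lowest mouse for 114, and the highest was CFO2 for 96 and DMO5 for 18. Their ratio of highest to lowest mouse lay between 2.04 and 3.00, with a median of 2.47. On the log2 CPM scale, 96.9% of their variance lay on 1 principal component. The Pearson correlation of an entry with the summed hAT level over 18 mice had a median of 0.99 and was above 0.9 for 114 of 119 entries. Among the repeats outside hAT the median was 0.98, and 934 of 1020 were above 0.9. These are descriptions in which the entries share libraries, depth and normalization, and each hAT entry is itself part of the sum. The order of the entries by count was also held from mouse to mouse, with a Spearman rank correlation over entries of at least 0.996 in all 153 pairs of mice.

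The values of single entries show the same mice at the ends. URR1A ran from 1778 CPM in YM1 through a median of 2826 to 3562 in YF3 among younger mice, from 2049 in CMO6 through 2789 to 4127 in CFO2 among older mice, and from 1942 in DFO5 through 2809 to 4033 in DMO5 among older 3TC-treated mice. The 3 group medians lay within 37 CPM of each other, while the mice of a group spanned 1784 to 2091 CPM. Arthur1 ran from 93.4 through 169.5 to 213.2 CPM in younger, from 119.5 through 169.4 to 256.1 in older and from 105.7 through 171.4 to 241.7 in older 3TC-treated mice. MER53 ran from 133.5 through 225.3 to 272.7 CPM in younger, from 166.5 through 217.1 to 329.5 in older and from 153.5 through 223.7 to 316.4 in older 3TC-treated mice. For these 3 entries the lowest and highest mouse of each group were those named for URR1A.

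Where entries departed from the common course, low counts or a small shift of share were seen. The SD over mice of an entry's log2 share of hAT counts had a median of 0.06, against an SD of 0.33 for the log2 summed level itself. Shares were steadiest for URR1B (SD 0.02), RMER30 (0.02), MER58A (0.02) and MER20B (0.02), and among entries above a mean count of 100 they varied most for UCON23 (0.16), MamRep488 (0.14), MER97d (0.14) and MamRep1894 (0.13), whose mean counts were between 128.9 and 189.4. Among the 5 highest entries, the SD of the log2 share was 0.05 for RCHARR1 and between 0.02 and 0.03 for the other 4. The share of RCHARR1 ran from 6.40% in YF8 to 7.28% in CMO3. It had a median of 6.54% in younger, 6.95% in older and 6.69% in older 3TC-treated mice, and the 3 groups overlapped. The lowest correlation with the summed level was that of nhAT5a_ML at 0.33. Its counts were 4 to 17 in younger, 9 to 20 in older and 7 to 31 in mice given 3TC, and counting alone gives its log2 share an SD of 0.37 at such counts.

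**Figure D2:**
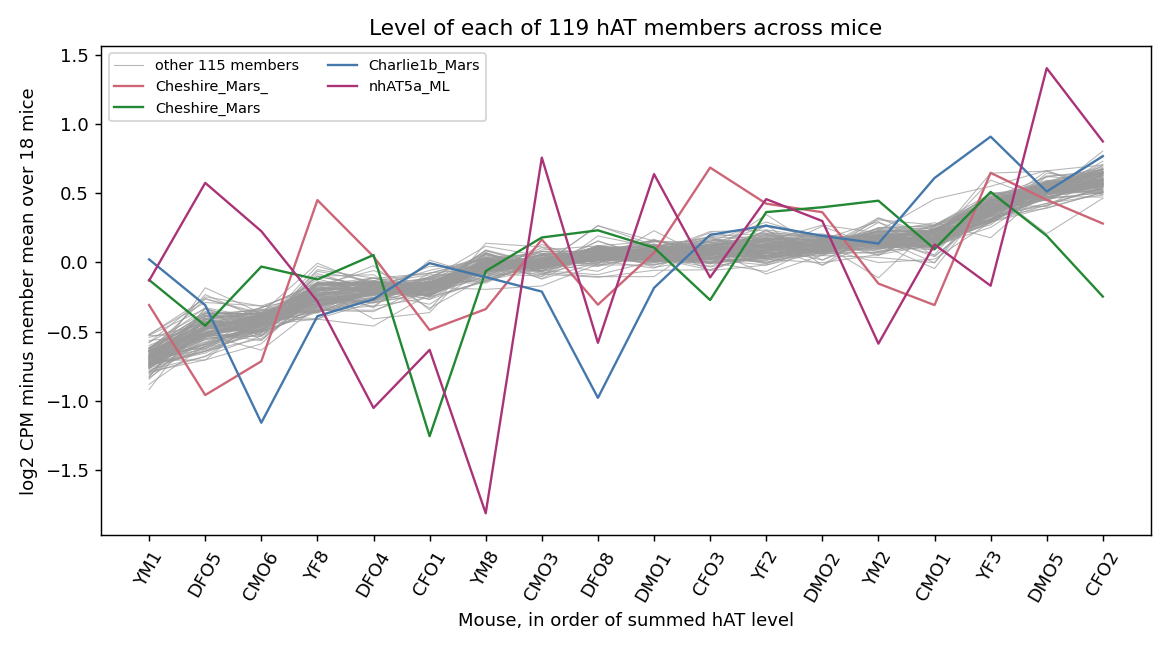
Level of each of the 119 hAT entries as log2 CPM minus its own mean, with the 18 mice in order of the summed hAT level, grey for the 115 entries with a mean count above 100 and colours for the other 4. The grey lines climb together from YM1 to CFO2, and the 4 coloured lines scatter around them.

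The question of the aging comparison was whether hAT RNA differed between older and younger mice, and no entry passed the test. Of 119 entries, 0 were called by edgeR's quasi-likelihood test at an adjusted p under 0.05, and the background over all genes and repeats tested was 0.0119% called. The count without adjustment, at p under 0.05, was also 0, against 0.399% of all tested, and DESeq2 called 0. The fold changes nonetheless leaned one way by a small amount. The median log2 fold change was 0.08 against a median of -0.0005 over all 16774 genes and repeats tested, and 114 of 119 entries lay above 0 against 49.8% of all tested. The median SE of a single entry was 0.20, larger than this shift. URR1A had a log2 fold change of 0.07 (SE 0.21, edgeR adjusted p = 0.9999). The 3 entries with the smallest p on the higher side were nhAT5a_ML (log2 fold change 0.55, SE 0.41), MER97b (0.18, SE 0.20) and Charlie4 (0.14, SE 0.15). On the lower side they were Cheshire_Mars (-0.38, SE 0.27), Cheshire_Mars_ (-0.14, SE 0.29), a separate entry of the table, and UCON23 (-0.09, SE 0.17).

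The lean was shared with other repeats and rested on single mice. The other 78 DNA transposon entries had a median log2 fold change of 0.10, with 75 above 0, and the repeats outside hAT had a median of 0.09. Leaving out CFO2 turned the hAT median to -0.05 with 16 entries above 0, leaving out YM1 turned it to -0.03, and leaving out both turned it to -0.16 with 1 above 0. Leaving out YF3 raised it to 0.18. No hAT entry had all older mice above or all below the younger mice, and 0.0537% of all genes and repeats did.

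The 3TC comparison asked whether the drug was followed by another hAT level in older mice, and again 0 of 119 entries were called by edgeR, with 0% of all genes and repeats called. Without adjustment 0 had p under 0.05, against 1.16% of all tested, and DESeq2 called 0. The older mice of this comparison are those of the aging comparison, so the directions of both are tied. The median log2 fold change was -0.03, against a median of 0.0012 over all tested. Of the hAT entries 13 lay above 0 and 105 below, while 50.5% of all tested lay above 0. The other DNA transposons had a median of -0.02 with 18 of 78 above 0, and the repeats outside hAT had a median of -0.04. URR1A had a log2 fold change of -0.02 (SE 0.21, edgeR adjusted p = 0.9999). The smallest p values on the higher side belonged to Cheshire_Mars (0.30, SE 0.27), nhAT5a_ML (0.13, SE 0.39) and UCON23 (0.05, SE 0.17), and on the lower side to Charlie1b_Mars (-0.25, SE 0.34), MamRep1894 (-0.11, SE 0.22) and Charlie17a (-0.09, SE 0.20). Without CFO2 the median was 0.10, with 117 entries above 0, and without DMO5 it was -0.14, with 2 above 0.

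Between older 3TC-treated and younger mice 0 of 119 entries were called by edgeR, against 0.0119% of all tested, and DESeq2 called 0 as well, with 0 at an unadjusted p under 0.05, against 1.72% of all tested. The median log2 fold change was 0.06, against 0.0099 over all tested, with 109 entries above 0 against 53.8% of all tested. The repeats outside hAT had a median of 0.045. The largest value among the hAT entries was that of nhAT5a_ML (0.68, SE 0.40), which rests on the counts given above. MamTip1 (0.12, SE 0.17) and Charlie4 (0.10, SE 0.15) followed on the higher side, and Charlie1b_Mars (-0.31, SE 0.33), Cheshire_Mars_ (-0.16, SE 0.29) and MamRep1894 (-0.08, SE 0.22) had the smallest p on the lower side. Without YM1 the median was -0.06, with 5 above 0. In each of the 3 group comparisons the family medians stayed close to each other. In aging they were 0.09 for hAT-Charlie, 0.07 for hAT-Tip100, 0.09 for hAT-Blackjack and 0.04 for the entries labelled only hAT.

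**Figure D3:**
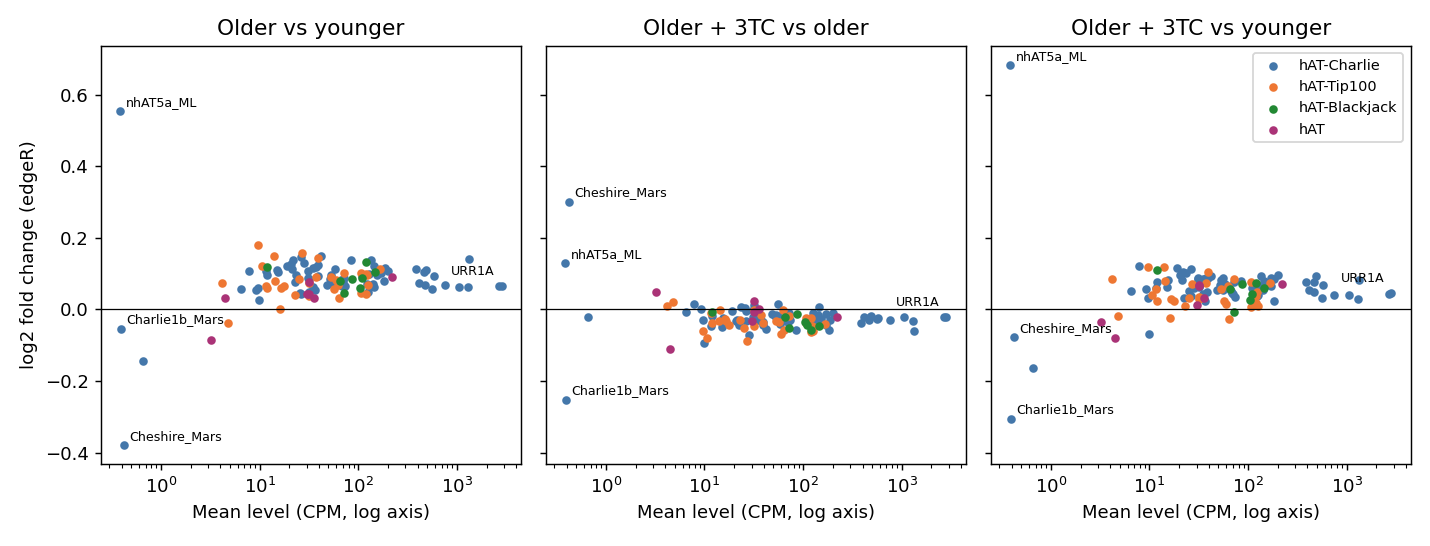
Log2 fold change of each hAT entry against its mean CPM (log axis) in the 3 group comparisons, coloured by family, with a line at 0. The abundant entries form a narrow band near 0 the values farthest from it belong to entries with mean counts between 15.3 and 17.0, and no entry passed the test.

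With the library size set to the summed hAT count, each entry was compared relative to hAT as a whole, and the spread of the fold changes shrank. A median near 0 over the entries follows from this setting, and it was 0.0016 in aging. From the 5th to the 95th percentile the entries ran from -0.06 to 0.06. No entry was called by edgeR, and 2 had an unadjusted p under 0.05 in aging. They were RCHARR1 (log2 fold change 0.07, SE 0.03) and Cheshire_Mars (-0.45, SE 0.20), both with an edgeR adjusted p of 0.9999. In the 3TC comparison on this scale RCHARR1 had -0.04 (SE 0.03) and Cheshire_Mars 0.32 (SE 0.20), and 0 entries had an unadjusted p under 0.05.

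Males and females were compared over all 3 groups. Of 119 hAT entries 0 were called by edgeR, against 1.53% of all genes and repeats tested, and DESeq2 called 0 as well, with 0 at an unadjusted p under 0.05, against 2.76% of all tested. The median log2 fold change of males against females was -0.02, with 22 entries above 0, against 48.3% of all tested. Leaving out 1 mouse at a time moved this median between -0.10 (without DMO5) and 0.06 (without CFO2). MER106B, a hAT-Charlie entry, had nearly separate shares in the sexes, but it was called in only 1 of the settings run. Its share of hAT counts was 0.143% to 0.164% in the 9 males, with a median of 0.153%, and 0.163% to 0.181% in the 9 females, with a median of 0.171%. The sexes overlapped only at the edge, where the male DMO1 lay above the female CFO1. In the fit on all genes and repeats its log2 fold change was -0.19 (SE 0.16, edgeR adjusted p = 1). In an edgeR fit on the repeats alone it was -0.15 (SE 0.03, edgeR adjusted p = 0.00456), and MER106B was the 1 hAT entry called there, where 4.83% of the repeats were. With the summed hAT count as library size it had -0.16 (SE 0.08, edgeR adjusted p = 1, unadjusted p = 0.065). With the summed repeat count as library size it had -0.14 (SE 0.08, edgeR unadjusted p = 0.103) and was not called. In all other alternatives run it was also not called. The cause of the difference was not tested.

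The aging difference between the sexes gave 0 called hAT entries by edgeR, with 0% of all tested, and 0 at an unadjusted p under 0.05, against 0.191% of all tested. Its median was -0.02 with an SE of a single entry of 0.38, and leaving out 1 mouse at a time moved it between -0.24 (without YM1) and 0.23 (without CFO2). The 3TC difference between the sexes was also taken, as a comparison added later. It was larger in size, though 0 entries were called by edgeR, with 0% of all tested. In males the summed hAT level was 18280 ± 3706 CPM in older and 22670 ± 4073 in older 3TC-treated mice, and in females it was 21780 ± 6027 and 16610 ± 2941 (SD, n = 3 each). The older males ran from 14270 to 21570 and the 3TC-treated males from 19820 to 27330, and the older females ran from 16900 to 28520 and the 3TC-treated females from 13610 to 19490, so that the groups overlapped in both sexes. The median difference of the log2 fold changes, males minus females, was 0.70, and the median SE of a single entry was 0.38. Above 0 were 118 of 119 entries, against 50.5% of all tested. At an unadjusted p under 0.05 were 22 of 119 entries (18.5%), against 7.70% of all tested. The entries rise and fall together in the same mice, so these counts are not separate observations and are not read as an excess. Leaving out 1 mouse at a time moved this count between 2 (without DMO5, DFO5 or CMO6) and 83 (without CFO1), and it was 2 on total counts. The smallest p was that of Charlie10b (1.01, SE 0.33, edgeR adjusted p = 0.447). The other DNA transposons had a median of 0.68 with 78 of 78 above 0. With the library size set to the summed hAT count the hAT median was 0.00, a value near 0 that follows from that setting. Leaving out 1 mouse at a time kept the hAT median between 0.46 (without CFO2) and 0.86 (without CFO1).

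The common course of hAT was that of the other repeats and the reverse of that of the summed genes. The summed level of the other DNA transposons differed 2.36-fold between mice, that of the MIR SINEs, ancient short elements, 2.34-fold, that of the L2 and CR1 LINEs, ancient long elements, 2.45-fold, and that of the L1 LINEs, which include active copies in mice, 2.503-fold. The ratio of hAT to the other DNA transposons was between 2.91 and 3.06 in all 18 mice. The ratio of hAT to the IAP elements, retroviral elements of which some copies are active in mice, was less even, between 1.49 and 1.92. Genes summed to 275578 CPM in DFO5 and 189069 CPM in CFO2, a 1.46-fold range, and had a Pearson correlation with hAT of -0.97. The widths of these ranges depend on the TMM scaling. As a share of all counts, hAT ran from 1.61% in YM1 to 2.15% in CFO2. Gene counts were 13.0 M of 35.6 M in YM1 and 6.01 M of 42.1 M in CFO2, so on that scale the genes varied more. Gene and repeat counts of a mouse share 1 total, so that a larger share of the one is a smaller share of the other.

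Single genes split by their level. Genes were put into 5 equal classes of mean count per kb of exon, with exon lengths from GENCODE vM21 (GRCm38) for 15562 of 15635 genes. The median Pearson correlation of a gene with the summed hAT level over 18 mice was 0.80 in the lowest class, 0.74, 0.22 and -0.64 in the next ones and -0.85 in the highest. These are descriptions across genes that share the same 18 libraries. All correlations in this paragraph use TMM-scaled CPM on both sides, and a split of sign by level can depend on that scaling. No values without TMM factors are given for them. Each class was also split by intron length. The medians for shorter and longer introns were 0.79 and 0.82 in the lowest class, 0.74 and 0.74, 0.33 and 0.08, and -0.61 and -0.66 in the next ones, and -0.86 and -0.84 in the highest, so that the middle class differed most. The 5 genes most like hAT, among those with a mean count above 100, were UGT1A1 (r = 0.99) and UGT1A5 (0.98), glucuronosyltransferases of the liver and gut whose transcripts share exons, so their reads may be split between them, KIF24 (0.98), a kinesin of the centriole, NEB (0.98), the giant nebulin of the muscle filament, and MYO3B (0.98), a myosin of sensory cells. NEB had 17.1 CPM in YM1 and 43.6 CPM in CFO2. The repeats most like hAT were the SINE B3, the DNA transposons Tigger7 and Tigger5b, and the LTR entries MLT2D and RMER5, each with r of 0.998 or 0.999. The genes that ran most against hAT were VCP (-0.98), an ATPase of protein quality control, MFN2 (-0.98), which fuses mitochondria, VDAC1 (-0.98), the pore of the outer mitochondrial membrane, CTNNB1 (-0.98), the beta-catenin of junctions and Wnt signalling, and SLC25A12 (-0.98), a mitochondrial carrier of neurons. VCP had 100.7 CPM in YM1 and 50.8 CPM in CFO2. The 78 cytosolic ribosomal protein genes had a median correlation with hAT of -0.89.

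**Figure D4:**
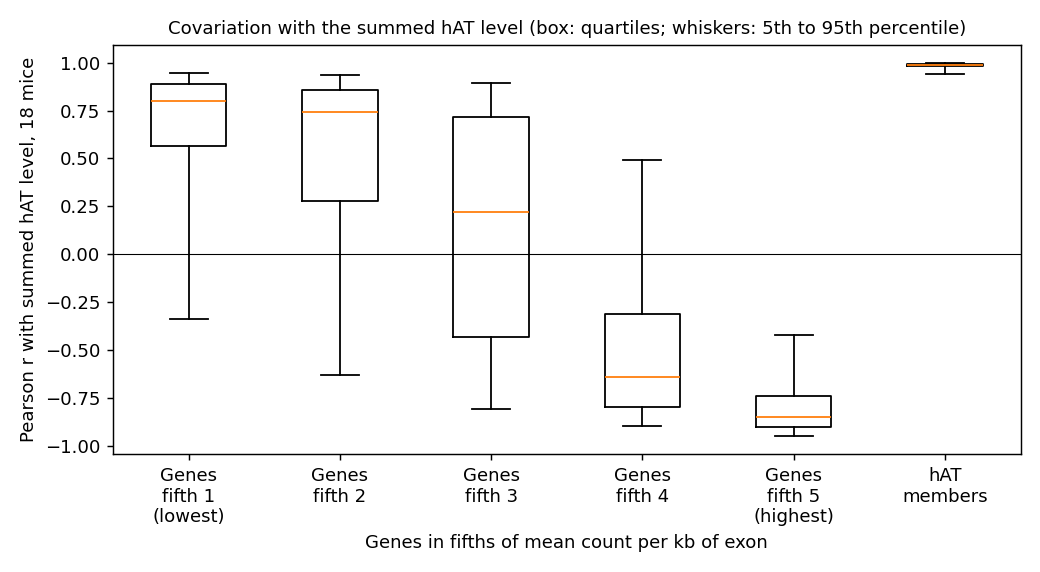
Pearson correlation with the summed hAT level over 18 mice for genes in 5 classes of mean count per kb of exon and for the 119 hAT entries, with boxes for quartiles and whiskers from the 5th to the 95th percentile. On TMM-scaled CPM, the median falls from 0.80 in the lowest class to -0.85 in the highest. The hAT entries, each of them part of the summed level, sit at 0.99.

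The level of hAT was also set beside genes that are known for other tissues. A list of 25 such genes held milk caseins, liver plasma proteins, lens crystallins, sperm protamines, insulins and the like, and all 25 had counts. None was called in any of the 3 group comparisons. Their summed level was 29.4 CPM in DFO5 and 87.8 CPM in CFO2, and 23 of 25 had a correlation with hAT above 0.5, against 37.9% of all genes and 78.6% of those in the lowest class of counts per kb. The leading entry of each hAT family was related to the mean log2 CPM of the list over 18 mice, which made 4 relations and 8 tests. URR1A had a Pearson r of 0.97 and a Spearman rho of 0.92 (permutation p = 1e-05 for each, two-sided, the smallest that 100000 permutations can give, Benjamini-Hochberg adjusted p = 1e-05). Without DFO5 and YM1, the 2 mice farthest from the median, r was 0.95. Within the groups r was 0.96 in younger, 0.98 in older and 0.98 in older 3TC-treated mice. MER63D had r = 0.96 and rho = 0.92, MER53 had 0.95 and 0.90, and Arthur1 had 0.94 and 0.90, with adjusted permutation p values of 1e-05 for each r and of at most 2e-05 for each rho, and with r of 0.94, 0.92 and 0.90 without the same 2 mice. On CPM without TMM factors r was lower, at 0.86 for URR1A, 0.83 for MER63D, 0.73 for MER53 and 0.73 for Arthur1. Both sides of these relations share libraries and normalization. The permutation p is set against no relation at all, while genes of the lowest class already had a median r of 0.80 with hAT. It therefore does not set these genes apart from other low-count genes. The 4 entries rose and fell together, so the 4 relations are not independent of each other. What part DNA, unspliced RNA or RNA quality has in them was not tested.

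**Figure D5:**
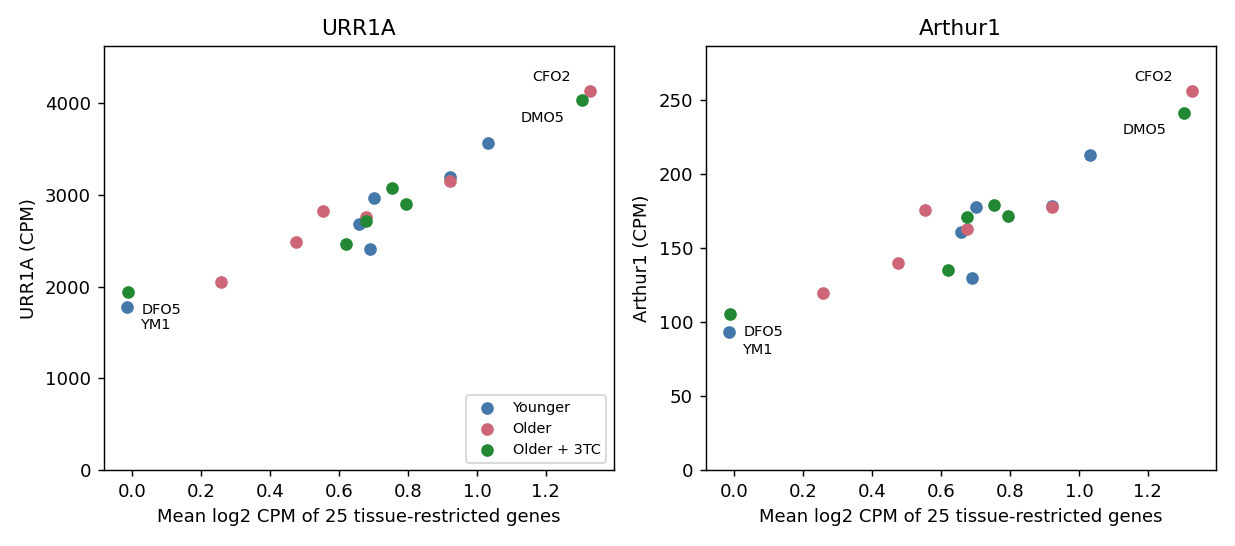
CPM of URR1A (left) and Arthur1 (right) in each mouse against the mean log2 CPM of the 25 tissue-restricted genes, coloured by group. The points of all 3 groups lie along 1 band from YM1 and DFO5 to DMO5 and CFO2.

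Cell type markers were summed in each mouse to check the tissue. All 10 marker genes of hippocampal neurons were detected, and they summed to 74.5 CPM in DFO4 and 241.9 CPM in YM1. The 8 choroid plexus markers ran from 29.2 CPM in DMO2 to 647.7 CPM in CMO3 and the 8 thalamus markers from 71.0 CPM in YF8 to 443.1 CPM in DFO4, so that markers of tissue next to the hippocampus were uneven between mice. Their summed levels had Pearson correlations with hAT of -0.40 and -0.28, and that of the hippocampal neurons -0.37. Those of microglia (7 genes, 60.8 to 96.3 CPM), astrocytes (6 genes, 814.7 to 1805 CPM) and oligodendrocytes (6 genes, 428.9 to 1592 CPM) were -0.80, -0.79 and -0.79, and that of endothelium (5 genes, 42.9 to 62.6 CPM) was 0.32. Over all genes tested, 37.7% had a correlation below -0.5, and in the highest class of counts per kb 92.5% did. The median of single genes was -0.58 for microglia, -0.74 for astrocytes and -0.76 for oligodendrocytes, against -0.85 in that class. It was -0.32 for hippocampal neurons, -0.23 for choroid plexus and -0.16 for thalamus. For endothelium it was 0.72, with 3 of 5 genes above 0.5 and 1 below -0.5. Marker and repeat counts also share 1 total, so these values are not read as a change of cells. In bulk tissue, fewer cells of a type and less RNA per cell cannot be told apart. No gene of these lists was called in the 3 group comparisons. In 3TC against older, 0 of 10 hippocampal neuron markers (median log2 fold change -0.35) and 0 of 8 choroid plexus markers (-0.52) lay above 0. All 8 thalamus markers did (0.74), with the highest sum in DFO4, a 3TC-treated mouse, against 50.5% of all genes and repeats tested. The markers of a list share the same mice, so these are not separate observations, but the lists were not balanced between these groups.

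Some host genes descend from hAT transposases. Of 9 such genes listed, 6 were tested and 0 were called in any group comparison, while 4 had a correlation with hAT above 0.5 and 2 below -0.5. Over all genes tested, 37.9% were above 0.5 and 37.7% below -0.5. ZBED4 (chromosome 15, 88751660 to 88784516, GRCm38), a zinc finger protein with a hAT dimerization domain, had 7.44 to 8.90 CPM in younger, 7.004 to 9.002 in older and 6.49 to 9.97 in older 3TC-treated mice, and its correlation with hAT was 0.85. ZBED3 (chromosome 13, 95323612 to 95337841), which binds axin in Wnt signalling, had a correlation of 0.57, ZBED5 (chromosome 5, 129895723 to 129903623) of 0.59 and GTF2IRD2 (chromosome 5, 134184019 to 134224355), a GTF2I-related gene with a Charlie-like transposase domain, of 0.57. EPM2AIP1 (chromosome 9, 111271929 to 111279093), whose product binds laforin, ran the other way at -0.89, with 38.8 to 61.4 CPM in younger, 31.6 to 58.4 in older and 33.5 to 67.4 in older 3TC-treated mice. ZBED6 (chromosome 1, 133655879 to 133660885), a repressor of Igf2 in muscle, had -0.78, and it lies inside ZC3H11A (chromosome 1, 133619862 to 133661380) on the same strand, so its counts cannot be told from those of that gene. Log2 fold changes of the 6 genes had medians of -0.02 in aging and 0.04 in the 3TC comparison. Of 16 host genes from other transposases 15 were tested and 0 were called, and 7 had a correlation with hAT above 0.5 and 6 below -0.5, to be read against the same shares over all genes. None of 9 nuclear noncoding RNAs listed matched a gene name of the table, and they were not analysed here.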

How the data were processed

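Per the labels, hippocampus RNA of 18 mice was sequenced. The authors deposited raw counts of reads per feature for 15644 genes and 1146 repeats, with 0 columns of per-sample values left unused. STAR, DESeq2 and the mm10 build stand in the submitters' processing notes, and the paper names TEtranscripts and RepEnrich2, which both share out reads that match several repeats. Which of them made the deposited repeat counts is not given in the sources used here. Versions are not given in the sources used here. The labels give polyA RNA and the paper total RNA with ribosomal depletion, which bears on how much unspliced RNA was read.

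Counts were tested with edgeR 4.0.16 (R 4.3.3, quasi-likelihood, TMM) over 16774 genes and repeats with a mean count above 10, with 3 groups in 1 model and Benjamini-Hochberg adjustment at 0.05. DESeq2 1.42.0 was an alternative. Males were compared with females, and interactions tested, with sex and group as factors. The interaction of 3TC with sex was not in the first plan. CPM used TMM factors. Other alternatives were median-ratio factors, total counts, factors from genes, library sizes from hAT or repeat counts, other filters, a sex term, a block of sex and label number, 2 groups only, repeats only, and each mouse left out. The code was tested on simulated data. The 2 repeats whose names matched genes were renamed.

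Entries named are the 5 highest and 3 lowest in CPM, the highest of each family, the 3 with the smallest p per direction in each main comparison, the 4 steadiest and 4 least steady in share, and those of the rodent lineage. Charlie10b was named after its values were seen. Genes named are the 5 most and 5 least like hAT and the hAT-derived host genes. Gene lists covered host genes from hAT and other transposases, nuclear noncoding RNAs, tissue-restricted genes, ribosomal proteins and markers of hippocampal neurons, choroid plexus, thalamus, microglia, astrocytes, oligodendrocytes and endothelium. The entries and lists were chosen with earlier results of these data known. No repeat sequences were used here.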

Additional observations from a re-analysis of the deposited data

Results flagged for a closer look

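In a screen for single mice that stand apart within a group of 6, 1 of 84 groups tested over 24 hAT entries and other measures met the limit. UCON23, a low-count entry labelled only hAT, was at 4.38 CPM in CFO2, the older mouse with the highest summed hAT level, against 3.17 CPM in the next older mouse. The gap was 0.63 of the range of the group. Chance gives such a flag in about 1 of 20 groups.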

How the results depend on the processing

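No hAT entry was called in the 3 group comparisons under any alternative run. Of 1179 alternative values for 46 results, 1137 were scored as kept, 36 as reversed and 6 as moved. Some changes of sign of the hAT medians are among those scored as kept. Leaving out 1 mouse at a time turned the sign of this median 2 times in aging and 3 times in 3TC against older. In 3TC against younger it did so 2 times. The median log2 fold change of the hAT entries ran, leaving out each mouse in turn, from -0.05 to 0.18 in aging, from -0.14 to 0.10 for 3TC against older and from -0.06 to 0.15 for 3TC against younger. Without YM1 and CFO2 together, a choice made after seeing the data, these medians were -0.16, 0.10 and -0.05, MER97b and Charlie4 in aging were -0.076 and -0.058, Charlie17a in 3TC against older was 0.045, and URR1A was -0.161 in aging, 0.107 in 3TC against older and -0.054 in 3TC against younger. URR1A was also near 0 on other scales. In aging it was -0.018 with hAT library sizes, and -0.022 with repeat library sizes and -0.022 on repeats only. In 3TC against older it was 0.004 with total counts, 0.005 with hAT library sizes, and 0.015 with repeat library sizes and on repeats only. In 3TC against younger it was -0.013, -0.007 and -0.007 with hAT library sizes, with repeat library sizes and on repeats only. On repeats only, 1 hAT entry was called in males against females, MER106B at -0.151, and the median of the 3TC difference between the sexes was 0.011, against 0.0 with hAT library sizes, 0.051 with repeat library sizes and 0.263 with total counts. A median near 0 with hAT library sizes follows from that scale, and the cause of the other moves was not tested.

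Leaving out each mouse in turn gave URR1A -0.061 to 0.152 in aging, -0.145 to 0.107 in 3TC against older and -0.078 to 0.131 in 3TC against younger. It gave UCON23 -0.216 to 0.021 in aging and -0.019 to 0.166 in 3TC against older, nhAT5a_ML -0.152 to 0.302 and Charlie17a -0.202 to 0.045 in 3TC against older, MamTip1 -0.003 to 0.197 and MamRep1894 -0.258 to 0.039 in 3TC against younger, and MamRep1894 -0.023 to 0.177 in males against females. With sex and label number as a replicate block the hAT medians were 0.29 in aging, -0.04 for 3TC against older and 0.26 for 3TC against younger, UCON23 in aging was 0.047, and Cheshire_Mars_ and MamRep1894 in 3TC against younger were 0.054 and 0.045. Whether the numbers pair the mice could not be settled. Same-numbered mice had deviations correlated from -0.55 to 0.34, and 0 of 11 mice with a partner correlated best with it. With so few pairs this cannot exclude a factor shared by same-numbered mice. DESeq2 was not run on the differences between the sexes in aging and 3TC effects. Depth limits the 4 entries with a mean count of 100 or less most, and for the others the spread between mice exceeds that of counting.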
